A study of Camelina sativa with 12 samples.

Results

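The root-restricted abundant genes of camelina (Camelina sativa, an oilseed of the Brassicaceae) were 59 of the 49932 genes in the table. They were chosen by their level alone: each had to reach 50 CPM or more in all 6 root libraries and to stay at 1 CPM or less in all 3 control shoot libraries. CPM is the count of a gene scaled to the size of its library, here normalised further and rounded to whole numbers by the authors. Of the 1940 genes that reached the root floor, 3.04% were members, and of the 4225 genes at or under the control shoot ceiling, 1.4% were. Roots and shoots were taken from DH55 plants 28 days after planting. Salt-treated plants had received 192 mM NaCl (an electrical conductivity of 15 dS per m) for 21 days, and control plants had received tap water. The duration is that of the labels and of the methods for these RNA samples, while other passages of the study, on growth and photographs, give a later start of salt. The 4 groups were salt roots, control roots, salt shoots and control shoots, with 3 biological replicates in each. The rule used both root groups and the control shoots, so only the salt shoot libraries played no part in it. The contrast of root level with control shoot level is therefore a description, and it carries no test.

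Roots take up water and ions, exchange compounds with the soil and defend a surface that soil organisms reach first. Genes with transcripts in roots and almost none in leaves often encode proteins of these surface tasks, such as transporters, cell wall enzymes, defence proteins and glycosidases, although many lack a known role. Salt slows root growth, draws water from cells and brings sodium and chloride to the root before they reach the shoot. The table pairs no ID with a name. The study's text and sheets gave a name for 7 members, and 52 had none, so those 52 are described by ID. Names other than that of Csa19g003320 came from a sheet of genes that the study had listed as up-regulated in salt shoots on these same samples, so the named members are not an independent sample of the 59.

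Tissue labels were checked with marker genes. The 25 shoot markers, which are the small chain of rubisco, a chlorophyll-binding protein and other photosynthesis genes, summed to 141 to 262 CPM in salt roots and 85 to 101 CPM in control roots. In salt shoots they summed to 11604 to 14150 CPM, and in control shoots to 27600 to 29998 CPM. The other photosynthesis genes came from the study's sheet of genes down-regulated in salt shoots on these same samples. Their fall in salt shoots was thus fixed by that choice. Of the 25 markers, 11 were listed at 0 in all 3 salt roots and 14 in all 3 control roots, and 5 had every salt root above every control root. The rubisco small chain gene Csa16g026850 was at 67, 24 and 31 CPM in salt roots and at 4, 10 and 4 CPM in control roots. The auxin efflux carrier gene EIR1 (Csa11g090640) was the only root marker analysed here. It was at 4 CPM in each salt root, 11, 13 and 18 CPM in control roots, 2, 1 and 1 CPM in salt shoots and 1 CPM in each control shoot. The markers therefore separated roots from shoots in both conditions. The summed shoot markers were higher and EIR1 was lower in every salt root than in every control root. The study's text names the rubisco and chlorophyll-binding genes as up-regulated and EIR1 as down-regulated in roots on these same samples. Neither difference is therefore independent of the choice of markers. The rise of the sum lay in those up-regulated genes. Among the other shoot markers the highest in roots, Csa05g039850, was at 33, 33 and 36 CPM with salt and 37, 37 and 36 CPM without. The part of the marker differences in the members' root changes was not tested. In whole organs, a change in the share of a cell type and a change in RNA per cell cannot be told apart. The library totals of the table were 882288 to 938888 CPM in roots and 1077479 to 1117956 CPM in shoots, and the read depth behind them is unknown.

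The mean of a member over the 6 root libraries ran between 60.5 and 981 CPM, with a median of 122 CPM. Of the 59, 8 averaged 500 CPM or more, 34 averaged 100 to 500 CPM and 17 averaged less than 100 CPM. CPM is not divided by transcript length, so this order describes shares of the library and not molecules. The highest was Csa09g072150, at 1159, 901 and 920 CPM in salt roots and 828, 1157 and 922 CPM in control roots, where the groups overlapped. It ranked first among the members, and the best rank of any member among all genes was 19. In control shoots 35 members were listed at 0 in every library, and the other 24 were at 1 in at least 1 library. At the root floor, Csa12g010010 and Csa16g032470 lay just inside with a lowest root value of 50 CPM, and Csa11g009330 (49 CPM) and Csa10g004800 (48 CPM) lay just outside. At the ceiling many genes were tied: 16 genes with 50 CPM or more in all roots peaked at 2 CPM in control shoots and were left out.

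The members together made up a larger share of the libraries in salt roots. Their summed level was 13651, 14061 and 16825 CPM in salt roots, against 8919, 10443 and 10477 CPM in control roots, which averages 14846 ± 1726 CPM and 9946 ± 890 CPM (SD, n = 3 each). The groups did not overlap. In shares of the library totals this was 1.45 to 1.83% in salt roots and 1.01 to 1.17% in control roots. Most of the difference of the sums came from 3 members, Csa15g055380, Csa19g040390 and Csa05g011380, which held 3643, 2521 and 3599 CPM of the sum in salt roots and 396, 475 and 360 CPM in control roots. The other 56 members summed to 10008, 11540 and 13226 CPM in salt roots, against 8523, 9968 and 10117 CPM in control roots, and there the groups overlapped.

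**Figure D1:**
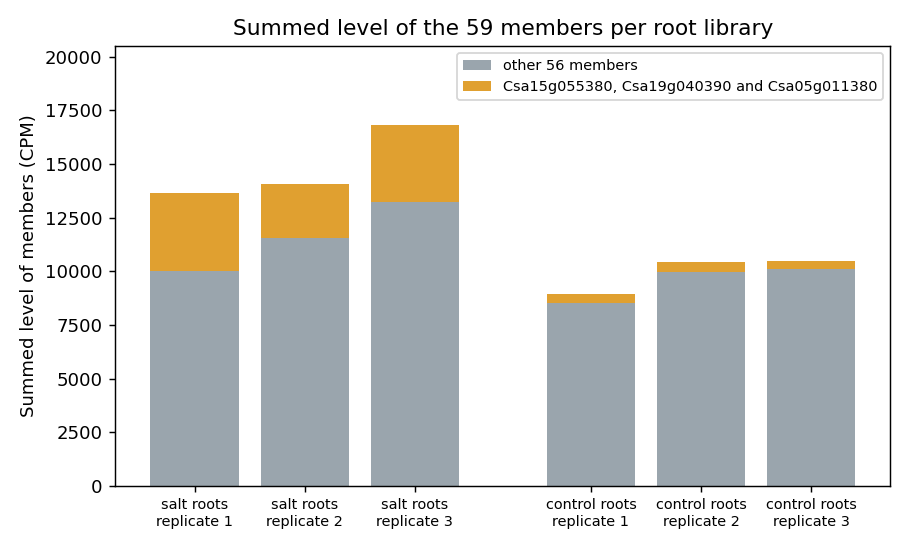
Summed level of the 59 members in CPM (bar height) in each of the 3 salt root and 3 control root libraries, split into the 3 members with the largest rise and the other 56. Every salt root bar (13651 to 16825 CPM) stands above every control root bar (8919 to 10477 CPM), while the grey segments overlap between the groups.

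Salt-treated roots were compared with control roots gene by gene with limma on the log2(CPM + 0.5) scale. A gene was called where its Benjamini-Hochberg adjusted p, taken over all 49928 genes tested, did not exceed 0.05 and its log2 change was beyond 1 in either direction. All 59 members passed the filter on low values. Of the 59, 12 (20.3%) were up-regulated in salt roots, against 8.22% of all genes tested and 5.72% of the 1940 genes above the root floor. Down-regulation was called for 3 members (5.08%), against 7.85% of all genes tested and 3.61% of those 1940. The floor of 50 CPM in each root library bars large falls and bars rises from low levels, so the 1940 genes are the nearer background. The members' median log2 change was 0.43, and it was 0.00 over all genes tested and over the 1940. A further 14 members had an adjusted p of at most 0.05 with a smaller change, between -0.72 and 0.94, of which 10 were higher and 4 lower with salt. The remaining 30 had an adjusted p above 0.05.

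Replicates were also compared without a threshold on size. In 27 members (45.8%) every salt root library was above every control root library, against 25.3% of all genes tested and 32.9% of the 1940 genes above the root floor. In 6 members (10.2%) every salt root library was below every control root library, against 23.5% of all genes tested and 33% of those 1940. The groups overlapped in 26 members.

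**Figure D2:**
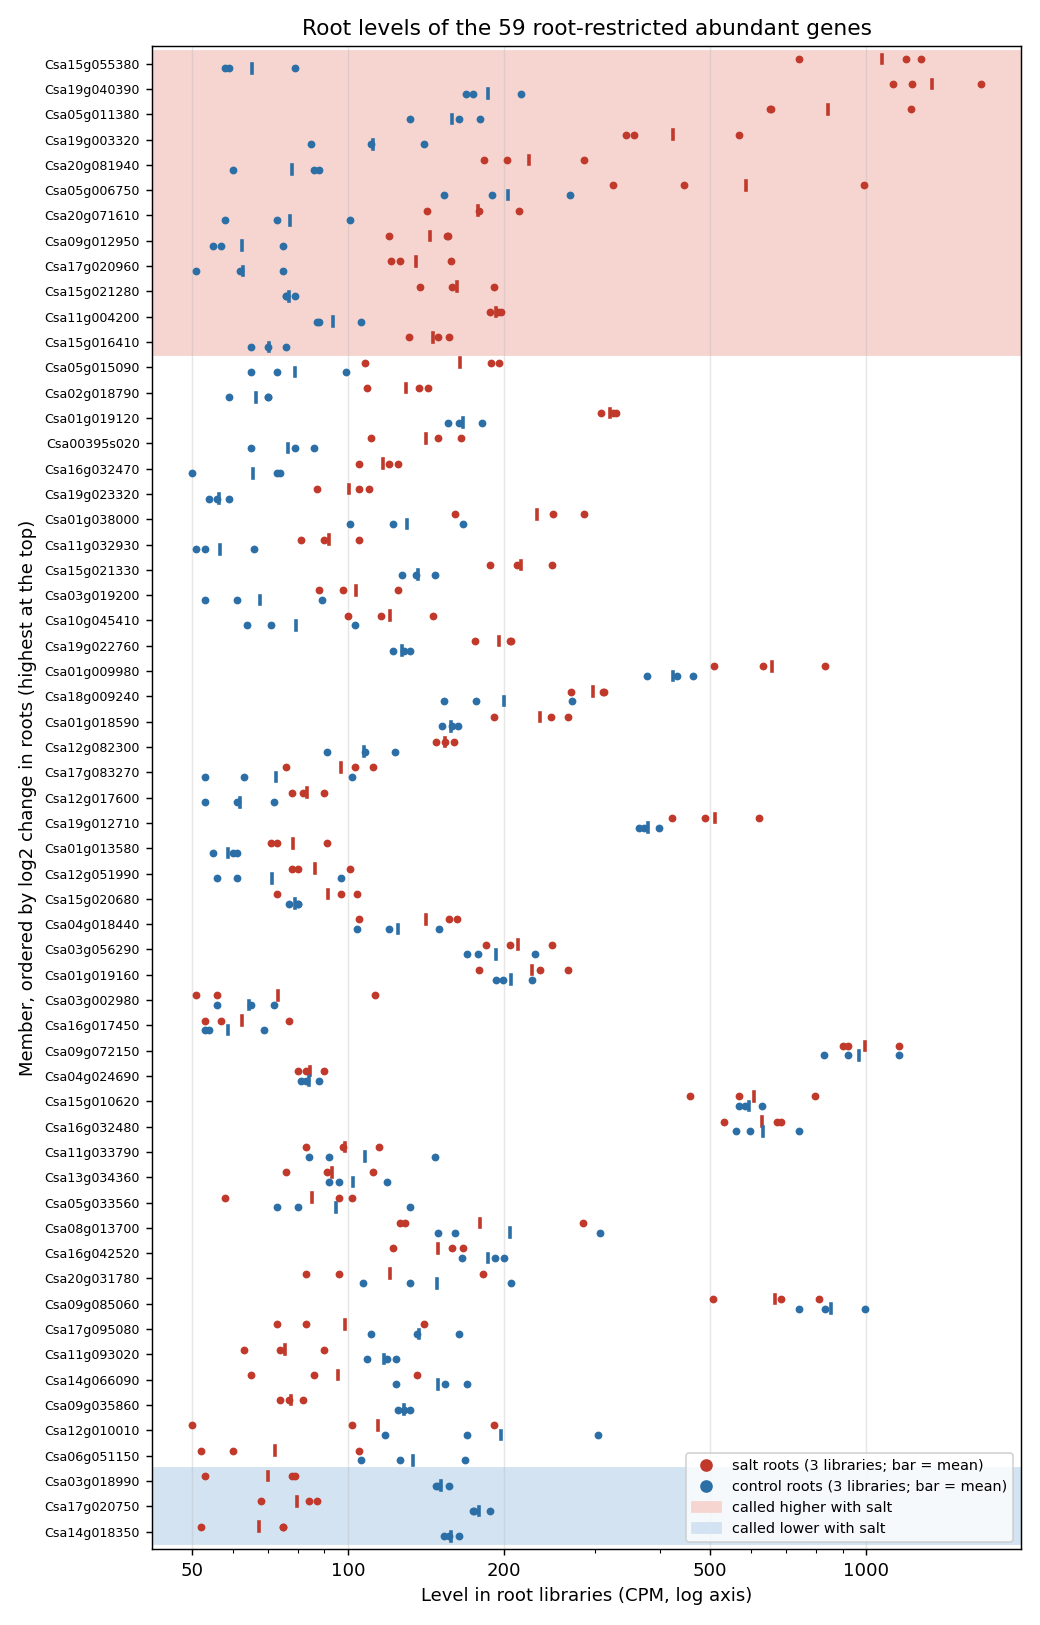
Level of each of the 59 members in the 3 salt root and 3 control root libraries (CPM, log axis), with bars at the group means and shading for members called higher or lower with salt. Members are ordered by log2 change, with Csa15g055380 (log2 change 4.0) at the top and Csa14g018350 (log2 change -1.24) at the bottom, and 26 members overlap between the groups.

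The largest rise was that of Csa15g055380. It was at 1195, 743 and 1278 CPM in salt roots and at 58, 79 and 59 CPM in control roots. This member was near the floor of the rule in control roots and among the highest with salt, with means that differed 16.4 times and a log2 change of 4.0 ± 0.36 (SE; adjusted p = 9.2e-06).

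Csa19g040390 was at 1226, 1127 and 1665 CPM in salt roots and at 174, 216 and 169 CPM in control roots. All 3 salt libraries were far above all 3 controls, by a log2 change of 2.83 ± 0.13 (SE; adjusted p = 2.6e-07). Its shoot level did not move, at 1 CPM in each salt shoot and each control shoot. Csa05g011380, singled out because its values weigh in the sum, was at 1222, 651 and 656 CPM in salt roots and at 164, 180 and 132 CPM in control roots. Its log2 change was 2.35 ± 0.38 (SE; adjusted p = 0.00043). By difference in CPM, salt root replicate 1 was about as far above the other salt roots as those were above the controls. On the log2 scale the other salt roots were nearer to replicate 1 than to the controls.

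Csa19g003320, named galactose mutarotase, had the fourth-largest rise. Galactose mutarotase (aldose 1-epimerase) interconverts the anomeric forms of galactose and related sugars before they enter metabolism. It was at 344, 569 and 356 CPM in salt roots and at 85, 140 and 111 CPM in control roots, a log2 change of 1.90 ± 0.20 (SE; adjusted p = 2.3e-05), and it was listed at 0 in all 6 shoot libraries. A pair of other genes carries the same name in the study's text, and neither is a member. Csa00532s180 was at 66, 45 and 47 CPM in salt roots and 18, 16 and 16 CPM in control roots, and at 26, 23 and 25 CPM in salt shoots and 7, 9 and 9 CPM in control shoots. Csa06g021410 was at 10, 9 and 8 CPM in salt roots and 2 CPM in each control root, and at 6, 6 and 7 CPM in salt shoots and 6, 5 and 5 CPM in control shoots. Both were called higher in salt roots (log2 changes of 1.61 and 1.92). Of the genes with this name, the member alone was listed at 0 in shoots. Camelina is hexaploid and carries near-identical copies of many genes, and no source used here says how reads that fit several copies were assigned, so the split among such copies is uncertain.

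The other 8 rises were between log2 changes of 1.04 and 1.51. Among them Csa17g020960, named for the lactoylglutathione lyase (glyoxalase I) family, was at 126, 121 and 158 CPM in salt roots and at 51, 62 and 75 CPM in control roots (log2 change 1.11 ± 0.41, SE; adjusted p = 0.045). Glyoxalase I uses glutathione to clear methylglyoxal, a toxic by-product of sugar breakdown. In all 12 up-regulated members every salt root library lay above every control root library. Without salt root replicate 3 the count was 7 of 59, and no other member was called in its place. Of the 5 that lost the call, 4 changed little in size: Csa15g016410 had a log2 change of 0.99, Csa15g021280 of 0.94, Csa17g020960 of 0.99 and Csa20g071610 of 1.20 without that library. The first 3 of these thus lay just under the size threshold. Without that library the adjusted p by limma was also above 0.05 for Csa17g020960 (0.13) and Csa20g071610 (0.064). Csa05g006750 was at 324, 445 and 988 CPM in salt roots, against 153, 190 and 268 CPM in control roots, and its log2 change was 1.40 with salt root replicate 3 and 0.94 without it.

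All 3 down-regulated members were unnamed. Csa14g018350 was at 52, 75 and 75 CPM in salt roots and at 164, 153 and 157 CPM in control roots, a log2 change of -1.24 ± 0.13 (SE; adjusted p = 2.8e-05). Csa17g020750 was at 68, 84 and 87 CPM in salt roots and at 188, 175 and 174 CPM in control roots (log2 change -1.17 ± 0.42, SE; adjusted p = 0.040). Csa03g018990 was at 53, 78 and 79 CPM in salt roots and at 157, 149 and 148 CPM in control roots (log2 change -1.13 ± 0.14, SE; adjusted p = 5.8e-05). In these members the control replicates were close together, salt root replicate 1 was the lowest, and the groups were well apart. Without salt root replicate 1 only Csa14g018350 was called of the 3, while Csa03g018990 had a log2 change of -0.94, just under the size threshold, and Csa17g020750 one of -1.06. Csa17g020750 kept its size but lost its call when any 1 of the 6 root libraries was left out. Among the rises Csa17g020960 also lost its call each time. Its log2 change lay just under the size threshold without salt root replicate 3 (0.99) and without control root replicate 1 (0.97).

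The spread in this fit is shared over roots and shoots, and for genes at 0 or 1 in shoots a single step of 1 CPM is a log2 step of 1.58. This widened the error of members with mixed shoot values, while steady shoot values narrowed it for many others. The SE of Csa17g020750 was 0.42 in the shared fit and 0.11 with roots fitted alone, and that of Csa17g020960 was 0.41 and 0.18. With roots fitted alone both were called (adjusted p = 0.0017 and 0.0079 by limma). For Csa19g040390 the SE was 0.13 in the shared fit and 0.19 with roots fitted alone. Its adjusted p by limma was 2.6e-07 and 0.00080 in these fits. Csa05g015090 was at 108, 189 and 196 CPM in salt roots and at 73, 65 and 99 CPM in control roots, a log2 change of 1.03 with no overlap that was not called in the shared limma fit (adjusted p = 0.11) and was called with roots fitted alone. In that fit 12 members were called higher and 3 lower, against 5.62% and 3.35% of the genes above the root floor, and 14 of the 15 calls of the shared fit were made again. The exception was Csa05g006750, with an SE of 0.35 in the shared fit and 0.48 with roots fitted alone (adjusted p = 0.067 by limma).

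Of the 8 members that averaged 500 CPM or more over the 6 root libraries, 3 were up-regulated, but those 3 are the largest rises already given, and they reached this average through their salt values. By control roots alone 4 members averaged 500 CPM or more, and the lowest adjusted p among these by limma was 0.41. Csa09g085060 was at 507, 810 and 685 CPM in salt roots and at 742, 993 and 833 CPM in control roots, with a log2 change of -0.37 ± 0.35 (SE; adjusted p = 0.41), and the groups overlapped. Csa16g032480 was at 685, 674 and 532 CPM in salt roots and at 596, 742 and 561 CPM in control roots, also with overlap. Csa19g012710 is the next below these 8. Its listed orthologue is AT3G09260, which in Arabidopsis is the beta-glucosidase PYK10, a major protein of the endoplasmic reticulum bodies of roots that takes part in defence. It was at 421, 488 and 620 CPM in salt roots and at 365, 372 and 399 CPM in control roots. All salt values were above all controls, but the log2 change of 0.41 ± 0.46 (SE) did not pass the test (adjusted p = 0.50). This SE includes the spread of its shoot values. With roots fitted alone it was 0.16, and the change still did not pass (adjusted p = 0.088 by limma).

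The other 4 named members had no call in roots. Csa11g032930, named as a 2-oxoglutarate and Fe(II)-dependent oxygenase and placed by the study with gibberellin metabolism, was at 81, 90 and 105 CPM in salt roots and at 53, 66 and 51 CPM in control roots (log2 change 0.70 ± 0.12, SE; adjusted p = 0.00065), a rise under the size threshold. Oxygenases of this family modify many small molecules, gibberellins among them. Csa03g019200, the other lactoylglutathione lyase member, was at 88, 98 and 125 CPM in salt roots and at 53, 61 and 89 CPM in control roots, with overlap (adjusted p = 0.35). It shares the listed orthologue AT1G15380 with Csa17g020960. Csa01g013580, a basic chitinase that belongs to the pathogenesis-related proteins and cleaves fungal chitin, was at 73, 71 and 91 CPM in salt roots and at 60, 55 and 61 CPM in control roots (adjusted p = 0.089). Csa03g002980, glutathione S-transferase 6, was at 56, 51 and 113 CPM in salt roots and at 72, 56 and 65 CPM in control roots (adjusted p = 0.87). Glutathione S-transferases couple glutathione to reactive or foreign compounds. Its high salt value came from replicate 3 alone, and the groups overlapped.

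Replicates of the roots were uneven for many members. The coefficient of variation of a member had a median of 19.3% in salt roots and 15.2% in control roots, and its highest values were 62.4% and 48.6%. Replicate 3 was the highest library in 43 members in salt roots and in 29 in control roots. In 23 members (39.0%) it was the highest in both groups, as in 19.5% of the 1940 genes above the root floor. Csa12g010010 shows the pattern at its widest, at 50, 102 and 191 CPM in salt roots and 118, 170 and 304 CPM in control roots. Csa08g013700 was at 126, 129 and 284 CPM in salt roots and 149, 161 and 307 CPM in control roots. In both, the replicate spread was larger than the difference between salt and control.

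In salt shoots most members stayed at the level of control shoots, and a smaller number gained transcripts. The summed level of the members was 134, 69 and 175 CPM in salt shoots, against 13, 20 and 17 CPM in control shoots. The rule held each member at 1 CPM or less in each control shoot and left salt shoots free. The control sum was thus kept low by that choice, and the lack of overlap is a description only. Csa16g017450 alone held 29, 15 and 66 CPM of the salt shoot sums, which stayed far under either root group. Of the 59, 26 were listed at 0 in all 3 salt shoots, 16 reached 1 CPM and no more, 7 reached 2 CPM or more in some of the salt shoots, and 10 (16.9%) were at 2 CPM or more in all of them. Of all 4225 genes at 1 CPM or less in each control shoot, 25.9% reached 2 CPM in all 3 salt shoots. By the limma test 18 members (30.5%) were called higher in salt shoots, against 10.8% of all genes tested and 36.9% of the tested genes under the same ceiling. The members' share was thus not above that of other genes that control shoots hardly expressed. Of the 18, 8 did not reach 2 CPM in every salt shoot, and their highest value was 3 CPM, so their calls rest on steps of 1 to 3 CPM. Some of them overlapped between salt and control shoots, such as Csa01g009980, at 1, 0 and 3 CPM with salt and 0 in all control shoots.

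The 10 members that reached 2 CPM in every salt shoot had salt shoot means between 2.67 and 36.7 CPM. All were called, but the rule and this choice together fixed every salt shoot above every control shoot. Their calls and adjusted p are therefore no independent support for a gain, and their values are given as a description. The highest was the unnamed Csa16g017450, which had the lowest root mean of all members. It was at 29, 15 and 66 CPM in salt shoots and 0, 1 and 1 CPM in control shoots (log2 change 4.91 ± 0.50, SE; adjusted p = 1.3e-05). The same gene was at 57, 53 and 77 CPM in salt roots and 69, 54 and 53 CPM in control roots, so its salt shoot mean was 58.8% of its salt root mean. Salt shoot replicate 3 was within the range of the roots for this gene.

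Both lactoylglutathione lyase members followed. Csa03g019200 was at 25, 6 and 22 CPM in salt shoots and 0, 1 and 1 CPM in control shoots (log2 change 3.90 ± 0.52, SE; adjusted p = 9.0e-05). Csa17g020960 was at 18, 5 and 23 CPM in salt shoots and 1 CPM in each control shoot (log2 change 3.16 ± 0.41, SE; adjusted p = 7.4e-05). Their salt shoot means were 17.0% and 11.4% of their salt root means. The values of this pair ran in parallel over the salt shoots, with replicate 2 far under the other two libraries in both.

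Csa03g002980, the glutathione S-transferase, was at 12, 4 and 10 CPM in salt shoots and was listed at 0 in all control shoots (adjusted p = 5.0e-06). Csa14g003040, which is no member because 1 salt root was at 44 CPM, has the same listed orthologue, AT1G02930. It was at 15, 3 and 13 CPM in salt shoots and at 0 in all control shoots, and at 52, 44 and 104 CPM in salt roots and 66, 58 and 66 CPM in control roots. Both genes were therefore called in salt shoots and not in salt roots, where replicate 3 was the highest library for each. Whether the effect of salt differed between the tissues was not tested, since the rule held the control shoots near 0.

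Csa11g032930, the oxygenase, was at 8, 7 and 8 CPM in salt shoots and at 1 CPM in each control shoot (log2 change 2.44 ± 0.12, SE; adjusted p = 1.2e-07). The unnamed Csa01g038000 was at 8, 5 and 6 CPM in salt shoots and at 0 in all control shoots (adjusted p = 4.8e-07). Csa19g012710, with PYK10 as its listed orthologue, was at 6, 2 and 8 CPM in salt shoots and 1, 0 and 1 CPM in control shoots (log2 change 2.31 ± 0.46, SE; adjusted p = 0.0015). Its salt shoot mean was 1.05% of its salt root mean, the lowest of the 10. The last 3, singled out to complete the 10, were Csa14g066090 at 4, 3 and 4 CPM, Csa15g016410 at 5, 2 and 4 CPM and Csa11g004200 at 2, 3 and 3 CPM in salt shoots, each with 1 CPM in every control shoot. The basic chitinase Csa01g013580 was at 2, 1 and 1 CPM in salt shoots and at 0 in all control shoots, which passed the test (adjusted p = 1.1e-05) on steps of 1 or 2 CPM.

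**Figure D3:**
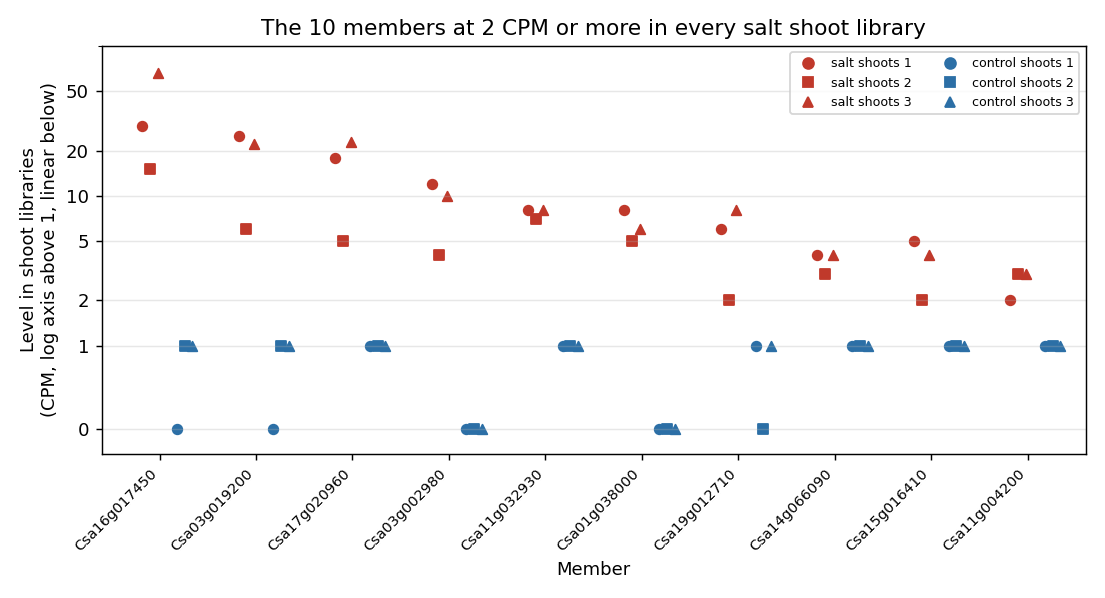
Level in each shoot library (CPM, log axis above 1 and linear below) of the 10 members at 2 CPM or more in every salt shoot, with salt shoots left of control shoots and 1 symbol shape per replicate number. All control shoot points lie at 0 or 1 CPM, the salt shoot points lie between 2 and 66 CPM, and the salt shoot replicate 2 squares are the lowest of their group in 9 members.

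Of these 10 members, 9 had their lowest salt value in salt shoot replicate 2. Among the same 10, 3 were up-regulated in roots (Csa17g020960, Csa15g016410 and Csa11g004200), 7 had no call and 0 were down-regulated. Of the 12 members up-regulated in roots, 5 were listed at 0 in every salt shoot. Of the 8 members that averaged 500 CPM or more in roots, 4 were listed at 0 in every salt shoot, Csa09g072150 and Csa16g032480 among them. The salt shoot mean of a member was between 0 and 58.8% of its salt root mean. The root marker EIR1 was at 2, 1 and 1 CPM in salt shoots and 1 CPM in each control shoot. Of the 10 members, 8 were at 1 CPM in at least 1 control shoot, and 2 of the 35 members at 0 in all control shoots reached 2 CPM in every salt shoot. The same split was not made over all genes and uses values that the rule used. Whether a gain goes with the control shoot level was therefore not tested.

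**Figure D4:**
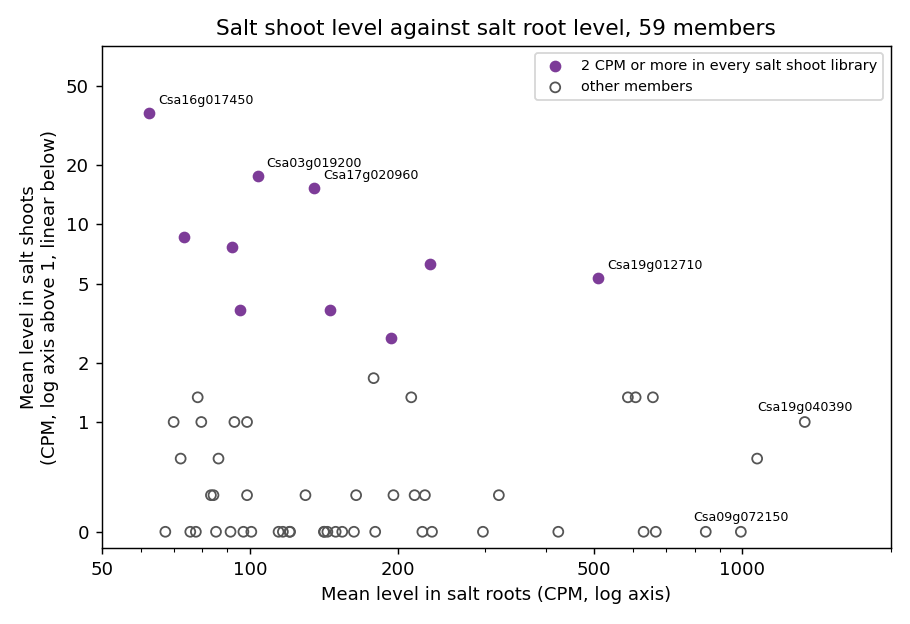
Mean level in salt shoots against mean level in salt roots (CPM) for the 59 members, with filled points for the 10 at 2 CPM or more in every salt shoot library. Csa16g017450 is the highest in salt shoots (36.7 CPM) at a salt root mean of 62.3 CPM, whereas Csa19g040390 is at 1 CPM and Csa09g072150 at 0.

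A fall was called in shoots for 3 members (5.08%), against 8.87% of all genes tested and 4.03% of those under the ceiling. They were Csa09g072150, Csa01g019120 and Csa05g011380, and each call was a step between 1 and 0 CPM. Csa09g072150 was at 0 in all salt shoots and at 1 CPM in all control shoots. Since the values are rounded, a step of this kind may be much smaller than 1 CPM.

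Members were spread over 19 of the 20 chromosomes, with 6 each on chromosomes 1 and 15, 5 on chromosome 19 and 0 on chromosome 7, and 1 was on an unplaced scaffold. Gene numbers in the IDs follow the order along a chromosome, so neighbours were read from them. Of the 58 placed members, 6 formed 3 pairs within 100 in gene number. A looser pattern, 20 CPM or more in every root and 5 CPM or less in every control shoot, was held by 25 of the 633 genes within 100 of a member (3.95%), against 0.627% of all genes listed. Of the 25, 19 were no members, and the other 6 were the paired members, which meet the looser pattern by the rule itself. The comparison is a description with no test, and the counts of neighbouring copies may share reads.

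Neighbours did not always change alike with salt. On chromosome 15, 2 members lay with 3 further genes of the looser pattern, which were chosen after their values were seen. The member Csa15g021280 was at 138, 159 and 191 CPM in salt roots and 76, 79 and 76 CPM in control roots and was up-regulated, and Csa15g021320, between the members, was at 86, 104 and 99 CPM in salt roots and 33, 40 and 40 CPM in control roots (log2 change 1.34). The member Csa15g021330 was at 188, 212 and 248 CPM in salt roots and 135, 147 and 127 CPM in control roots with no call. Csa15g021310, in the same stretch, was at 21, 25 and 31 CPM in salt roots and 31, 36 and 32 CPM in control roots, with no call. Csa15g021230 was at 125, 131 and 104 CPM in salt roots and 27, 30 and 35 CPM in control roots (log2 change 1.95). Of the 5 genes, Csa15g021310 alone had a lower mean with salt.

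On chromosome 1 the members Csa01g019120 and Csa01g019160 flank Csa01g019130. Csa01g019120 was at 308, 329 and 324 CPM in salt roots and 156, 181 and 164 CPM in control roots (log2 change 0.94, under the size threshold). Csa01g019160 was at 179, 235 and 266 CPM in salt roots and 193, 227 and 199 CPM in control roots, with overlap. Csa01g019130 was at 47, 71 and 87 CPM in salt roots and 92, 100 and 117 CPM in control roots (log2 change -0.63). All 3 were listed at 0 or 1 in every shoot library, and their salt changes differed in sign within 1 stretch of genes.

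Other neighbours missed the rule by their shoot values. Csa01g037990, next to Csa01g038000, was at 2301, 1530 and 2032 CPM in salt roots and 339, 493 and 303 CPM in control roots (log2 change 2.38), and at 5, 3 and 5 CPM in salt shoots and 1, 2 and 0 CPM in control shoots. Csa01g038000 itself was at 249, 161 and 286 CPM in salt roots and 122, 167 and 101 CPM in control roots (log2 change 0.82), with overlap. Csa05g011370, next to Csa05g011380, was at 419, 262 and 383 CPM in salt roots and 70, 85 and 59 CPM in control roots (log2 change 2.29), and at 7, 3 and 8 CPM in salt shoots and 1, 0 and 2 CPM in control shoots. Csa05g011380 was at 0 in all 3 salt shoots. Csa05g011370 and Csa05g011380 thus both rose in roots, while salt shoots held transcripts of the first and were listed at 0 for the second.

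The genes that the study's text names were set against the members as lists. Of the 247 IDs, 208 were tested, and 1 of them, Csa19g003320, is a member. Of the 208, 116 were called higher and 38 lower in salt roots, but the study chose them on these samples, so the counts are no independent evidence of a direction. Only 4 of the 208 reached 50 CPM in every root, and 68 were at 1 CPM or less in every control shoot. In the list on carbohydrates, which holds Csa19g003320, 24 of 33 tested genes were called higher and 2 lower in salt roots. In the lists on ion transport (32 tested) and hormones (80 tested) 0 genes were members, with 21 and 40 called higher and 5 and 20 called lower in salt roots.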

How the data were processed

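RNA from roots and shoots (stranded cDNA libraries) was sequenced by the authors. The authors trimmed reads with Trimmomatic, aligned them to the camelina reference by STAR, divided counts by library size and normalised further with DESeq, and no tool version is stated in the sources used here. The deposited value is a score, a CPM rounded to whole numbers by the authors, so count models were not used, 1 CPM is the smallest step and a gene listed at 0 may have had reads. The authors' own tests with edgeR were not used.

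The members and lists were chosen with earlier results of these data known. limma 3.58.1 in R 4.3.3 was fitted to log2(value + 0.5) of all 12 libraries in 4 groups with a variance trend (8 residual degrees of freedom, median prior 3.23), over 49928 genes at 1 or more in at least 3 libraries. Replicates carry numbers in the labels, but no batch is named, and the p-values measure the spread between these samples. With 3 against 3 libraries an exact permutation test cannot go below 0.10, so limma was used. Named genes are all members with a name, at most 2 unnamed members that rose and 2 that fell in roots, 2 with the highest salt shoot mean, and those beside the thresholds; other IDs were singled out after their values were seen. Alternatives were other pseudocounts, filters, scalings, member thresholds, separate fits per tissue, a replicate block and leaving out each library. No per-sample column was left unused. None of the IDs matched the RefSeq gene table, and no sequence was used here.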

Additional observations from a re-analysis of the deposited data

Results flagged for a closer look

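Csa03g018990 moved in opposite directions in the 2 tissues: in roots every salt library (53, 78 and 79 CPM) was below every control library (157, 149 and 148 CPM), with a log2 change of -1.13, and in shoots it was at 1 CPM in each salt library and listed at 0 in each control library. The difference between the tissues was not tested, and the shoot side rests on the smallest step of the values.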

How the results depend on the processing

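The count of members higher in salt roots was 12 and lower 3 in the main fit, and higher in salt shoots 18. Leaving out each library in turn gave 7 to 12, 1 to 3 and 14 to 18, a median log2 change in roots of 0.38 to 0.54, and 10 to 11 members at 2 CPM or more in every remaining salt shoot. Other pseudocounts, filters, scalings, the fit without a variance trend and separate fits per tissue kept these counts within 1.5 times. The largest drop was in salt shoots, from 18 called higher to 12 with a pseudocount of 1 and to 14 with separate fits. A pseudocount of 0.1 kept 18. Scaling all libraries to the same total left 7 members at 2 CPM or more in every salt shoot, against 10. The thresholds of the rule moved more. A root floor of 25 CPM (117 members) gave 22 higher and 10 lower in roots, with a median of 0.19, and a floor of 100 CPM (20 members) gave 3 and 0 in roots and 4 in salt shoots. A control shoot ceiling of 0 (35 members) gave 5 higher in roots, 9 in salt shoots, a median of 0.17 and 2 members at 2 CPM or more in every salt shoot, and a ceiling of 2 CPM (75 members) gave 17 of the last. These settings change which genes are counted. For the other ceilings the root background stays the 5.72% of genes above the root floor called higher. The salt shoot background changes with the ceiling and is not given here for the other ceilings. Their salt shoot counts therefore cannot be read as an excess or a lack. For the other root floors no background share is given here, so an excess of rises was not tested there.

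With the replicate number as a block the counts were 12 higher and 3 lower in roots and 18 higher in salt shoots. The numbers paired the samples in part at most. Deviations of same-numbered salt and control libraries correlated at -0.07, -0.01 and 0.31 in roots and -0.16, 0.04 and -0.15 in shoots. Replicate 3 of salt roots and replicate 3 of control roots correlated best with each other, while not every library did so with its own number. A replicate 3 effect shared by both root groups was not tested.

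Among single members, the root calls of Csa17g020960 and Csa17g020750 were each lost under 11 of 22 alternatives, and that of Csa20g071610 under 5, with no change of sign. The size of a gain in shoots depends on the pseudocount: Csa16g017450 ran between 4.32 and 5.96. Levels of 1 or 2 CPM in shoots are limited by rounding, and the read depth is unknown.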
